A study of Mus musculus with 9 samples.

Results

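The genes described here are the nuclear genes for subunits of the 5 complexes of oxidative phosphorylation, measured in the nucleus accumbens of mice, in the ventral striatum. Members were chosen by symbol: the numbered Ndufa, Ndufb, Ndufc, Ndufs and Ndufv genes of complex I, Sdha to Sdhd of complex II, the Uqcr genes and Cyc1 of complex III, the Cox5 to Cox8 genes of complex IV, and the Atp5 genes of complex V. The symbol pattern matched 79 of the 21423 genes in the deposited table, and 77 of those had a mean of at least 1 RPKM over all lanes. RPKM is the number of reads per kilobase of gene model, scaled to the total reads of the lane. The members were 36 genes of complex I, 4 of complex II, 9 of complex III, 12 of complex IV and 16 of complex V, within 14051 genes that passed the same filter. No measured difference between libraries was used to choose them, but the lists and members were chosen with earlier results of these data known.

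Oxidative phosphorylation takes place in the inner membrane of the mitochondrion. Complexes I and II pass electrons from NADH and succinate to ubiquinone, complex III passes them on to cytochrome c, and complex IV passes them to oxygen, while complexes I, III and IV pump protons. Complex V, the ATP synthase, uses the proton gradient to make ATP, on which neurons rely to restore ion gradients after firing. The few subunits encoded by mitochondrial DNA were not analysed here, since none of the 13 mitochondrial-encoded genes looked for is in the table.

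The study compared the accumbens transcriptome of adult male C57BL/6 mice, 2 to 5 months old, in 3 groups. The withdrawal group received cocaine daily by intraperitoneal injection for 7 days and was kept for 8 days after the last dose. The cocaine group received the same 7 injections and was killed 24 h after the last one, as was the saline group, which received saline at 10 ml/kg. The labels give cocaine doses of 10 and 20 mg/kg without saying which sample had which.

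RNA of 8 mice was pooled in each group, and each pool gave 1 poly(A) library that was run in 3 lanes. The 9 lanes are therefore 3 libraries, and values between lanes show technical spread only. With 1 library per group no test of the treatment is possible, and every difference below is a difference between these 3 libraries. Lane totals ran between 5546362 and 12026754 reads, so 1 read in a gene of 1 kb was worth 0.0831 to 0.180 RPKM. Differences were taken between means of log2(RPKM + 0.5) over the 3 lanes, a scale that understates the change of low genes. Calls of higher or lower needed a difference of 1.5 times or more between 2 libraries with no overlap of their lanes. Markers of medium spiny neurons, the main neurons of this tissue, were high, with Penk at 832 to 848 RPKM in the withdrawal library, 729 to 800 in the cocaine library and 975 to 1049 in the saline library. The 6 markers of cortical projection neurons summed to 34.0 to 35.7 RPKM in withdrawal lanes, 39.7 to 42.5 in cocaine lanes and 42.3 to 47.4 in saline lanes.

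The subunit genes were among the most abundant transcripts of the tissue. Their median level was 98.6 RPKM, against 9.24 RPKM for all tested genes, and 40 of the 77 lay in the top 5% of tested genes, which began at 92.3 RPKM. The highest mean levels were those of Cox6a1 (687 RPKM), a small subunit of cytochrome c oxidase, Atp5b (595 RPKM) and Atp5a1 (455 RPKM), which form the catalytic head of the ATP synthase, Ndufb10 (368 RPKM), an accessory subunit of complex I, and Cox8a (355 RPKM), another small subunit of complex IV. Median levels per complex were 74.5 RPKM for complex I, 52.1 for complex II, 134 for complex III, 162 for complex IV and 153 for complex V. Within a complex the levels were far from equal, with 18.4 times between Ndufs4 and Ndufb10 in complex I and 4.98 times between Uqcrfs1 and Uqcr10 in complex III.

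The lowest members were isoforms known from muscle or testis. Cox6b2, the testis form of Cox6b1, had a mean of 2.16 RPKM and was the lowest to pass the filter. Cox7a1 (3.12 RPKM) and Cox6a2 (3.51 RPKM) are heart and skeletal muscle forms. Cox7b2 (0.136 RPKM) and Cox8b (0.0842 RPKM), with at most 2 reads in a lane, did not pass it. In every lane Cox6a2 stood at under 1% of its partner Cox6a1, with 0.289% to 0.957%. Of 5 muscle markers, Ckm and Myl2 did not exceed 0.397 and 0.609 RPKM, and Myh7, Acta1 and Tnnt2 had means of 4.89, 4.23 and 6.31 RPKM. Those 3 had a median difference of -0.12 for withdrawal minus saline and -0.51 for cocaine minus saline, where Tnnt2 was called lower (-0.73). The part of muscle RNA in the levels of these isoforms was not tested.

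Summed over the 77 genes, the subunit transcripts made up a smaller part of both cocaine-exposed libraries. The sum was 9254, 9128 and 9242 RPKM in the 3 withdrawal lanes, 9094, 9057 and 9102 RPKM in the 3 cocaine lanes, and 12119, 12321 and 12312 RPKM in the 3 saline lanes. The 6 cocaine-exposed lanes all lay far below the 3 saline lanes, and the withdrawal and cocaine lanes differed by little. Against saline the sum was 24.8% lower in the withdrawal library and 25.8% lower in the cocaine library. As a share of all reads, the members took 1.27% to 1.28% in withdrawal lanes, 1.28% to 1.29% in cocaine lanes and 1.65% to 1.67% in saline lanes. In bulk tissue, fewer cells of a type and less RNA per cell cannot be told apart.

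Every complex had a lower sum in both cocaine-exposed libraries. Complex IV differed most, with 2013 ± 49.5 RPKM in the withdrawal library, 1943 ± 35.6 in the cocaine library and 2795 ± 29.3 in the saline library (mean ± SD over 3 lanes), 28.0% below saline in withdrawal and 30.5% below it in cocaine. Complex II differed least, with 274 ± 13.9 RPKM in the withdrawal library, 285 ± 10.2 in the cocaine library and 334 ± 3.27 in the saline library, 17.7% below saline in withdrawal and 14.5% below it in cocaine. Complexes I, III and V were 23.4%, 21.8% and 25.8% below saline in the withdrawal library and 25.5%, 21.3% and 25.3% below it in the cocaine library. No complex had withdrawal or cocaine lanes within the range of its saline lanes.

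**Figure D1:**
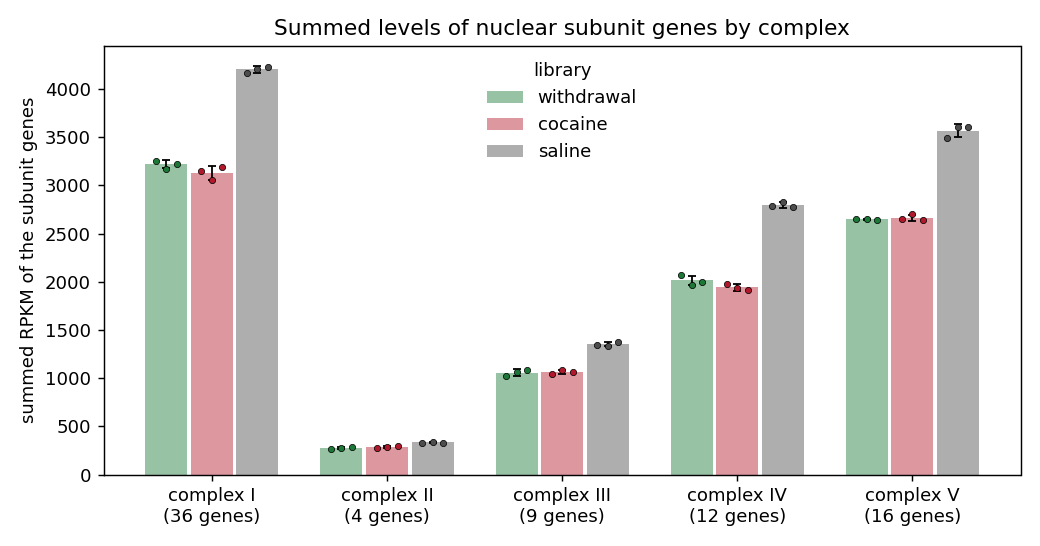
Summed RPKM of the subunit genes of each complex (vertical axis) in the withdrawal, cocaine and saline libraries. Bars are means of 3 lanes, error bars are SDs between lanes and points are lanes; in every complex the saline lanes lie above those of both other libraries, by the largest share in complex IV.

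In the comparison of cocaine with saline, 12 of the 77 members (15.6%) were called lower and 0 higher, where 2.41% of all tested genes were called lower and 2.93% higher. Their median difference was -0.40, against -0.047 for all tested genes, and 76 of 77 differences were below 0. For 72 members all 3 cocaine lanes lay below all 3 saline lanes, as they did for 23.9% of tested genes, and for 0 members they lay above, as for 18.3% of tested genes. Withdrawal against saline gave 10 members called lower (13.0%) and 0 higher, where 3.37% of tested genes were called lower and 3.96% higher. Here the median difference was also -0.40, against -0.056 for all tested genes, 75 members were below 0, and for 70 the lanes were apart in the lower direction, as for 25.6% of tested genes, and for 0 in the higher direction, as for 18.6% of tested genes. Both comparisons use the same saline library, so they are not separate evidence. The lanes of 69 members (89.6%) were below saline in both, and of 17.6% of all tested genes. Most members therefore differed by less than 1.5 times, in the same direction.

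**Figure D2:**
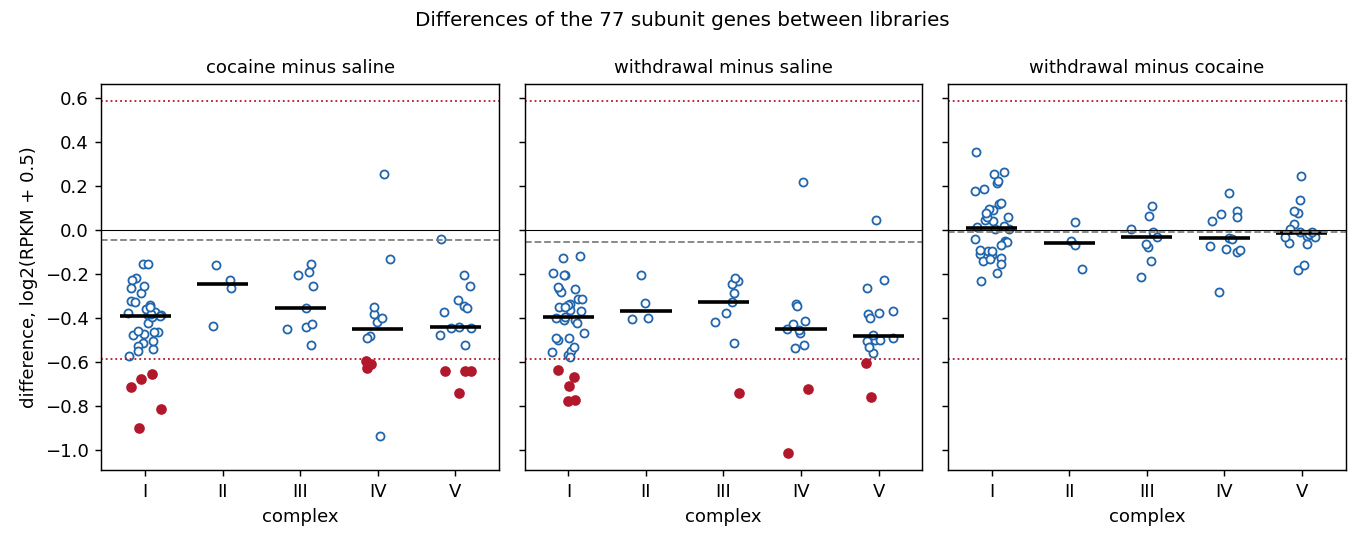
Differences in log2(RPKM + 0.5) of the 77 subunit genes by complex, for cocaine minus saline, withdrawal minus saline and withdrawal minus cocaine. Each circle is a gene and filled red circles are called; thick bars are medians, the grey dashed line is the median of all tested genes and dotted lines mark 1.5 times. Nearly all genes lie below the grey line in the first 2 panels (medians -0.40 and -0.40) and around it in the last (median -0.019).

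Complex I oxidises NADH and is the largest complex of the chain. Ndufa4, counted here by its name, is now placed in complex IV. Its 7 core subunits, which carry the flavin and the iron-sulphur clusters, had median differences of -0.31 for withdrawal minus saline and -0.33 for cocaine minus saline, and none was called. The 29 accessory subunits, which surround the core, had medians of -0.41 for withdrawal and -0.46 for cocaine, with 5 called lower in each comparison. Gene models of core subunits are longer (median 1990 bp) than those of accessory subunits (median 908 bp), and the difference between the classes was not tested.

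Ndufc1, a small membrane accessory subunit, had the largest difference among members above 5 RPKM. It stood at 19.7, 17.1 and 17.2 RPKM in withdrawal lanes, 17.3, 15.4 and 16.7 in cocaine lanes, and 32.7, 30.5 and 30.3 in saline lanes. Both cocaine-exposed libraries lay clear of saline and overlapped each other, with differences of -0.78 ± 0.07 for withdrawal minus saline and -0.90 ± 0.06 for cocaine minus saline (± SE over lanes). Ndufs5, an accessory subunit on the intermembrane space side, was also called lower in both comparisons. Its levels were 92.2, 107 and 90.2 RPKM in withdrawal lanes, 94.5, 86.5 and 105 in cocaine lanes, and 156, 160 and 135 in saline lanes, so its withdrawal and cocaine lanes overlapped as well.

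The other called genes of complex I were called in 1 comparison each. Ndufb2 (-0.81), Ndufa1 (-0.71) and Ndufs6 (-0.68), accessory subunits of the membrane arm or of the arm that faces the matrix, were called lower in the cocaine library and had -0.55, -0.50 and -0.42 in the withdrawal library, each with lanes apart from saline. Ndufa1, which is needed to assemble complex I, had 65.0, 63.9 and 75.01 RPKM in withdrawal lanes, 58.3, 59.3 and 57.9 in cocaine lanes, and 92.1, 92.3 and 105 in saline lanes: the 3 libraries did not overlap and cocaine was lowest. Ndufa5 (-0.77), Ndufs4 (-0.71) and Ndufb3 (-0.67) were called lower in the withdrawal library and had -0.54, -0.57 and -0.53 in the cocaine library. Ndufs4, whose loss in mice gives a model of Leigh syndrome, had 15.1, 14.6 and 18.2 RPKM in withdrawal lanes, 16.9, 16.7 and 18.9 in cocaine lanes, and 27.6, 28.7 and 22.8 in saline lanes. A call in 1 comparison alone therefore does not mean that the other library was at the saline level. The smallest differences in complex I were those of Ndufa3 (-0.12), Ndufv3 (-0.13) and Ndufa9 (-0.20) in the withdrawal library, and of Ndufa9 (-0.16), Ndufs1 (-0.16) and Ndufa10 (-0.22) in the cocaine library. The lanes of Ndufs7, a core iron-sulphur subunit, overlapped saline in both.

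Complex II, succinate dehydrogenase, belongs to the citrate cycle as well and has no mitochondrial-encoded subunit. None of its 4 genes was called, though the lanes of all 4 lay below saline in both comparisons. The flavoprotein subunit Sdha, its most abundant transcript, had 148, 148 and 158 RPKM in withdrawal lanes, 150, 154 and 166 in cocaine lanes, and 172, 180 and 172 in saline lanes, with differences of -0.21 for withdrawal and -0.16 for cocaine. The iron-sulphur subunit Sdhb had -0.33 in withdrawal and -0.26 in cocaine. The membrane anchors Sdhc and Sdhd had -0.40 and -0.40 in the withdrawal library, and -0.23 and -0.43 in the cocaine library. The members of complex II thus ran from little difference in Sdha to about the set's median in Sdhd.

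Complex III is the cytochrome bc1 complex. Its core and catalytic genes Uqcrc1, Uqcrc2, Uqcrfs1 (the Rieske iron-sulphur protein) and Cyc1 (cytochrome c1) had a median of -0.26 for withdrawal and -0.20 for cocaine, and the 5 small subunits a median of -0.42 for withdrawal and -0.44 for cocaine. Cyc1 had 145, 123 and 135 RPKM in withdrawal lanes, 142, 140 and 142 in cocaine lanes, and 153, 160 and 158 in saline lanes, with differences from saline of -0.23 in withdrawal and -0.15 in cocaine and lanes apart. Uqcrb, a small subunit that takes part in ubiquinone binding, was the only complex III gene called, in withdrawal: 45.2, 49.8 and 48.8 RPKM in withdrawal lanes, 52.8, 58.0 and 56.5 in cocaine lanes, and 92.0, 70.8 and 79.3 in saline lanes. Its 3 libraries did not overlap, with withdrawal lowest (-0.74 against saline) and cocaine between (-0.52). Uqcrh, the hinge protein that aids contact between cytochromes c1 and c, had -0.51 in withdrawal and -0.45 in cocaine. Uqcr10, Uqcr11 and Uqcrq had -0.38, -0.25 and -0.42 in the withdrawal library and -0.44, -0.36 and -0.43 in the cocaine library, and only the withdrawal lanes of Uqcr11 overlapped saline. The core genes of complex III have a median length of 1510 bp and the small subunits 641 bp, and the difference between these classes was not tested.

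Complex IV, cytochrome c oxidase, has its catalytic centres in mitochondrial-encoded subunits, and the nuclear genes here encode the subunits around them. Median differences were -0.45 in both comparisons. Cox7c was called lower in both, with 204, 203 and 198 RPKM in withdrawal lanes, 226, 205 and 214 in cocaine lanes, and 345, 334 and 319 in saline lanes. All its cocaine-exposed lanes lay below all saline lanes, and withdrawal stood just below cocaine without overlap (-0.09). Cox6a1, the most abundant member, had 690, 599 and 622 RPKM in withdrawal lanes, 611, 540 and 550 in cocaine lanes, and 862, 862 and 845 in saline lanes. It was called lower in the cocaine library (-0.60) and had -0.43 in withdrawal, with lanes apart from saline in both. Cox6b1, on the intermembrane space side, was called lower in the cocaine library (-0.61) and had -0.54 in withdrawal. The calls of Cox6a1 and Cox6b1 lie close to the limit of 1.5 times, and each was lost without 1 or another lane.

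The low isoforms of complex IV stood at levels where few reads were counted. Cox7a1 had the largest difference of any member, with 2.46, 1.65 and 2.23 RPKM in withdrawal lanes, 1.44, 2.20 and 3.36 in cocaine lanes, and 3.03, 5.79 and 5.91 in saline lanes. It was called lower in withdrawal (-1.01 ± 0.31) but not in cocaine (-0.94 ± 0.40), where 1 cocaine lane overlapped saline. These values rest on 4 to 5.95 reads per withdrawal lane, 4.19 to 11 per cocaine lane and 13.4 to 16.5 per saline lane. Cox6a2 was the only member with a positive difference in both comparisons (0.22 for withdrawal, 0.25 for cocaine), and its lanes overlapped: 3.56, 2.97 and 4.38 RPKM in withdrawal lanes, 2.87, 3.30 and 5.26 in cocaine lanes, and 2.65, 2.49 and 4.14 in saline lanes. Cox6b2 had -0.41 in withdrawal and -0.13 in cocaine with overlapping lanes. Without the 4 members under 5 RPKM, these 3 and Atp5s, the median of the other 73 was -0.40 for withdrawal and -0.42 for cocaine.

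Complex V makes ATP in its F1 head, which a stalk joins to the proton channel in the membrane. The 5 genes of F1 had medians of -0.38 for withdrawal and -0.32 for cocaine. The 10 genes of the peripheral stalk and membrane part had -0.50 for withdrawal and -0.46 for cocaine. Atp5h, the d subunit of the peripheral stalk, was called lower in both comparisons, with 121, 124 and 136 RPKM in withdrawal lanes, 122, 127 and 136 in cocaine lanes, and 210, 216 and 218 in saline lanes. Its means were 127 ± 7.66 RPKM in the withdrawal library and 129 ± 7.16 in the cocaine library, against 215 ± 4.13 RPKM in the saline library (SD over 3 lanes). Atp5e (-0.64), the epsilon subunit of F1, Atp5k (-0.64), the e subunit of the membrane part, and Atp5g2 (-0.64) were called lower in the cocaine library and had -0.56, -0.50 and -0.40 in withdrawal. Atp5o, the subunit that confers oligomycin sensitivity and links the peripheral stalk to F1, was called lower in withdrawal (-0.60) and had -0.44 in cocaine. The catalytic beta subunit Atp5b had 530, 547 and 537 RPKM in withdrawal lanes, 534, 568 and 546 in cocaine lanes, and 685, 696 and 714 in saline lanes, with differences of -0.38 in withdrawal and -0.35 in cocaine. Atp5s, a coupling factor rather than a subunit in the strict sense, had 0.05 in withdrawal and -0.04 in cocaine with overlapping lanes at a mean of 5.00 RPKM.

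The c subunit of the ATP synthase ring is encoded by 3 genes, Atp5g1, Atp5g2 and Atp5g3, which make the same mature protein with different targeting sequences. Their summed level was 331 ± 6.33 RPKM in the withdrawal library, 323 ± 4.68 in the cocaine library and 455 ± 5.65 in the saline library (SD over 3 lanes). Atp5g3 gave most of it, with 56.6% to 60.1% in withdrawal lanes, 60.3% to 65.2% in cocaine lanes and 59.8% to 60.7% in saline lanes. The share of Atp5g2 was 30.1% to 34.8% in withdrawal lanes, 26.3% to 30.5% in cocaine lanes and 30.6% to 32.0% in saline lanes, so its cocaine lanes lay just below the saline lanes and overlapped the withdrawal lanes. Atp5g1 gave 7.47% to 10.1% in any lane, and its differences were -0.37 in both comparisons.

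**Figure D3:**
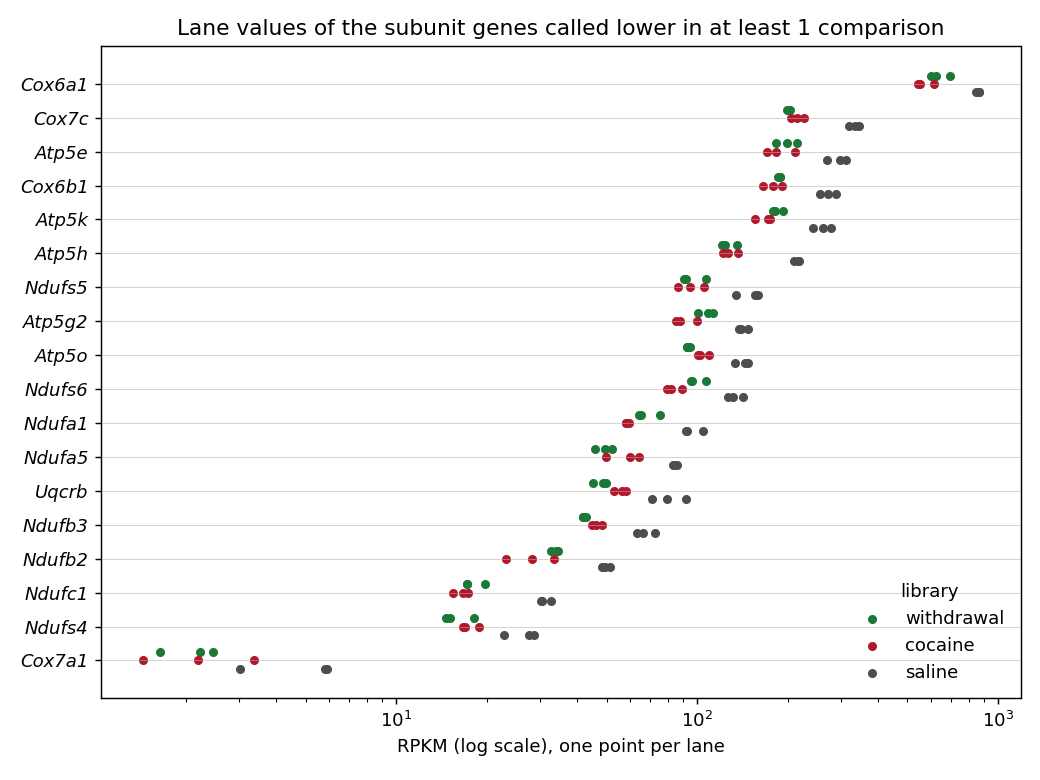
RPKM (horizontal axis, log scale) in each lane of the withdrawal, cocaine and saline libraries for the 18 subunit genes called lower in at least 1 comparison, ordered by mean level. In every gene but Cox7a1 all withdrawal and cocaine points lie left of all saline points; the withdrawal and cocaine points are apart in 8 of the 18 and overlap in the others.

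Withdrawal and cocaine were close to each other. None of the 77 members was called in either direction, where 0.548% of tested genes were called lower and 0.47% higher, and the median difference was -0.019, against -0.007 for all tested genes. The lanes were apart for 8 members with withdrawal higher (10.4%) and 10 with withdrawal lower (13.0%), against 8.66% and 9.42% of tested genes. Those 8 were Ndufa3, Ndufs6, Atp5g2, Ndufv3, Ndufa1, Ndufb6, Ndufs8 and Atp5k, and the 10 were Uqcrb, Ndufb4, Atp5c1, Sdhc, Atp5o, Ndufb3, Ndufa6, Ndufa12, Cox7c and Atp5a1. The 8 had differences of 0.14 to 0.35, and the 10 had sizes of 0.06 to 0.22.

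Ndufa3, an accessory subunit of complex I, had the largest difference between the 2 cocaine-exposed libraries, 0.35. It stood at 241, 219 and 258 RPKM in withdrawal lanes, 182, 196 and 182 in cocaine lanes, and 252, 241 and 286 in saline lanes. Its withdrawal lanes overlapped the saline lanes, while its cocaine lanes lay below both. An exon of Ndufa3 overlaps Tfpt on the other strand in the GENCODE M21 annotation. Sequencing libraries were made with random primers and no step that marks strand is named in the labels, so reads of overlapping genes cannot be told apart. In all, 27 members share exon sequence with another gene, among them Ndufb2 with Braf, Ndufs6 with Mrpl36, Atp5g2 with Mir688, Uqcrb with Gm10767, Atp5o with antisense transcripts and Atp5j with Gabpa. The 50 members without such overlap had medians of -0.41 for withdrawal minus saline and -0.40 for cocaine minus saline, with 8 called lower in withdrawal and 9 in cocaine. The 27 with overlap had medians of -0.40 for withdrawal and -0.44 for cocaine, and the part of overlap was not tested. No source used here says how reads that match several places, such as processed pseudogenes, were counted.

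The size of a difference moved with the length of the gene model across the whole table. Over all 14051 tested genes, Spearman's rho between length and difference was 0.46 for cocaine minus saline, 0.42 for withdrawal minus saline and 0.01 for withdrawal minus cocaine, so short genes were lower and long genes higher in both cocaine-exposed libraries relative to saline. These are correlations across genes, which share libraries and are not replicates. Subunit genes are short, with a median model of 1231 bp against 3531 bp for all tested genes. Among the 77 members rho was 0.43 for cocaine minus saline, 0.22 for withdrawal minus saline and -0.24 for withdrawal minus cocaine. The 12 members called lower in the cocaine library had a median length of 656 bp and the other 65 members 1249 bp. In withdrawal the 10 called had a median of 946 bp and the other 67 members 1237 bp.

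Set against genes of like length, the subunit genes were still low, by a smaller margin. Members under 700 bp (23 genes) had medians of -0.42 for withdrawal and -0.49 for cocaine, against -0.23 for withdrawal and -0.22 for cocaine in the 352 other tested genes in their range of lengths. Members of 700 to 1500 bp (25 genes) had -0.45 for withdrawal and -0.43 for cocaine, against -0.31 for withdrawal and -0.30 for cocaine in 1353 others. Members of 1500 bp or more (29 genes) had -0.37 for withdrawal and -0.35 for cocaine, against -0.12 for withdrawal and -0.10 for cocaine in 7484 others. When the median of the length bin was subtracted from each gene, the members' median became -0.21 for withdrawal and -0.18 for cocaine, and 65 members in withdrawal and 69 in cocaine lay below their bin's median. Of the calls, 1 was kept in withdrawal (Cox7a1), where 1.24% of tested genes were called lower after this step, and 2 in cocaine (Ndufc1 and Ndufb2), where 0.697% were. Level was not matched in these comparisons. Other tested genes of 659 to 1920 bp (2421 genes) had a median level of 10.2 RPKM, against 98.6 RPKM for all members. Over all tested genes, Spearman's rho between mean level and difference was -0.22 for cocaine minus saline and -0.19 for withdrawal minus saline. Among members it was -0.18 for cocaine and 0.02 for withdrawal. The parts of gene length and level in the remaining difference were not tested.

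**Figure D4:**
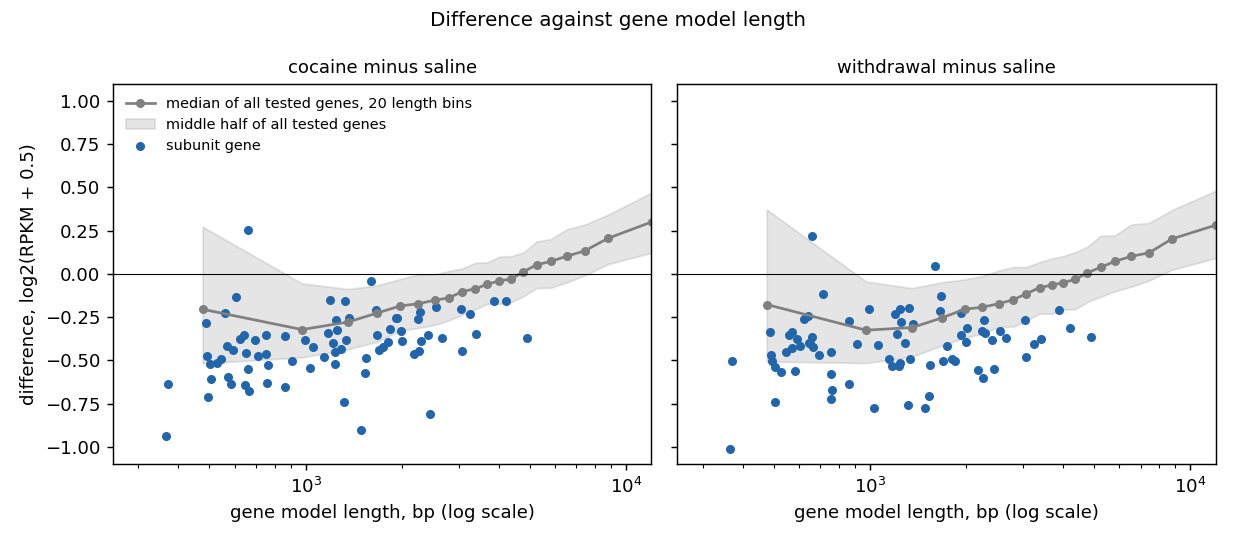
Difference in log2(RPKM + 0.5) against gene model length (log scale) for cocaine minus saline and withdrawal minus saline. Blue points are the 77 subunit genes, the grey line joins medians of all tested genes in 20 length bins and the grey band is their interquartile range. The grey line climbs with length from about 1 kb, and 69 (cocaine) and 65 (withdrawal) of the blue points lie below their bin's median.

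Other large gene sets were lower as well, though they differed in level and length. Cytosolic ribosomal protein genes had a median level of 240 RPKM and a median length of 1125 bp. The medians were 15.5 RPKM and 1753 bp for mitochondrial ribosomal protein genes, and 34.4 RPKM and 2043 bp for proteasome genes. The 81 tested genes for cytosolic ribosomal proteins had medians of -0.49 for withdrawal minus saline and -0.47 for cocaine minus saline, with 21 called lower in withdrawal and 13 in cocaine. The 76 genes for mitochondrial ribosomal proteins had -0.33 for withdrawal and -0.34 for cocaine, with 5 called lower in withdrawal and 8 in cocaine. The 37 proteasome genes had -0.42 for withdrawal and -0.35 for cocaine, with 3 (8.11%) called lower in withdrawal and 0 in cocaine. Of all tested genes, 3.37% were called lower in withdrawal and 2.41% in cocaine. In none of the 3 sets was a gene called higher against saline, as 3.96% of tested genes were in withdrawal and 2.93% in cocaine. Differences between these sets and the subunit genes were not tested, and the lower level is not shown to be particular to oxidative phosphorylation.

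The symbol pattern does not take every gene of the pathway. Cox4i1, the main isoform of the largest nuclear subunit of complex IV, had 470, 446 and 415 RPKM in withdrawal lanes, 438, 441 and 436 in cocaine lanes, and 604, 615 and 642 in saline lanes, with differences of -0.48 in withdrawal and -0.50 in cocaine. Cycs, cytochrome c itself, was called lower in withdrawal (-0.72) and had -0.58 in cocaine, with 24.1, 22.03 and 22.7 RPKM in withdrawal lanes, 25.7, 25.8 and 24.5 in cocaine lanes, and 38.2, 38.0 and 37.8 in saline lanes. Ndufab1, the acyl carrier protein of complex I, had -0.44 in withdrawal and -0.49 in cocaine. Ndufa4l2, a paralog of Ndufa4 known from hypoxia, was called lower in withdrawal (-0.76) at a level under 2.52 RPKM in every lane.

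Assembly factors, which help build the complexes but are not part of them, were described as a list of their own. The 30 tested assembly factors had medians of -0.13 for withdrawal and -0.15 for cocaine, with 1 called lower in each, which is 3.33% of them, against 3.37% of tested genes in withdrawal and 2.41% in cocaine. The difference between assembly factors and subunit genes was not tested. Sdhaf1, an assembly factor of complex II, was called lower in cocaine (-0.68) and had -0.35 in withdrawal. Next in size in cocaine were Ndufaf3 (-0.44) and Surf1 (-0.43), with -0.40 and -0.38 in withdrawal. Ndufaf1, which assembles complex I, was called lower in withdrawal against saline (-0.72) and against cocaine (-0.89). It stood at 8.41, 5.57 and 8.19 RPKM in withdrawal lanes, 12.7, 17.7 and 11.9 in cocaine lanes, and 13.9, 11.9 and 11.3 in saline lanes, so that withdrawal alone was low. Their gene models are longer than those of the subunits, with a median of 2446 bp.

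None of the 15 tested regulators of mitochondrial biogenesis was called, and their medians were 0.05 for withdrawal and 0.02 for cocaine. Ppargc1a, the coactivator PGC-1alpha, had 5.20, 4.87 and 4.56 RPKM in withdrawal lanes, 5.84, 6.46 and 5.92 in cocaine lanes, and 4.93, 4.41 and 4.79 in saline lanes. Its cocaine lanes lay above both other libraries (0.34 against saline), and withdrawal overlapped saline (0.05). The nuclear respiratory factor Nrf1 had 0.29 in withdrawal and 0.16 in cocaine, with lanes that overlapped saline in both. The mitochondrial transcription factor Tfam had -0.26 in withdrawal and -0.13 in cocaine, the mitochondrial transcription factor Tfb2m -0.27 in each, and the estrogen-related receptor Esrrg 0.29 in withdrawal and 0.34 in cocaine. The 18 genes of the citrate cycle and pyruvate dehydrogenase had medians of -0.23 for withdrawal and -0.14 for cocaine with no call. In that list Suclg1, Pdhb and Mdh2 had the largest sizes in cocaine, with -0.41, -0.39 and -0.33, and had -0.48, -0.57 and -0.37 in withdrawal. Citrate synthase, Cs, had 0.01 in withdrawal and 0.03 in cocaine.

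Promoter sequences were compared for letters known to be bound by factors of this pathway: the nuclear respiratory factor NRF1 (GCGCA, then any base, then GCGC), the ETS factor GABP, also called NRF2 (CCGGAAG), YY1 (AAGATGGCG) and the estrogen-related receptors (TCAAGGTCA). RefSeq promoters in build GRCm38.p6, with 250 bases before and 50 bases after each start, were held for 65 of the 77 members and were searched on both strands. The NRF1 letters stood in 25.7% of the 70 member promoters, 9.24% of promoters of tested genes and 4.60% of all 32851 promoters. The shares were 22.9%, 15.8% and 8.86% for GABP, 10.0%, 2.78% and 1.40% for YY1, and 2.86%, 0.314% and 0.423% for the estrogen-related receptors. A match describes letters and does not show binding.

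Stretches of 200 bases before the start are shown for 4 members to set such matches beside the measured differences: Atp5h, called lower in both comparisons, Cox6a1 and Atp5k, called lower in cocaine, and Sdha, with 3 NRF1 matches and one of the smallest differences. Capitals mark matches to the NRF1 and GABP letters on either strand. Each sequence is written 5′ to 3′ on the strand of the gene, which is the minus strand for all 4. Matches after the start are not shown, so a GABP match in Atp5k, with its first base at position 13 after the start, lies outside its stretch. Coordinates are chr11:115419920-115420119 for Atp5h, chr5:115348959-115349158 for Cox6a1, chr5:108434400-108434599 for Atp5k and chr13:74350241-74350440 for Sdha.
Atp5h: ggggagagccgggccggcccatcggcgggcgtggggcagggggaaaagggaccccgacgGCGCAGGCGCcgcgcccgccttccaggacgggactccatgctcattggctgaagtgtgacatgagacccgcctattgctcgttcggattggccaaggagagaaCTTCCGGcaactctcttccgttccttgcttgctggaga
Cox6a1: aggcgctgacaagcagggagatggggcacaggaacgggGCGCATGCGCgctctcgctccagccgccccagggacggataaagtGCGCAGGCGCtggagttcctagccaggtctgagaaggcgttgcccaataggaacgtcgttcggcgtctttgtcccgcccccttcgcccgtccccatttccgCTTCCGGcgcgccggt
Atp5k: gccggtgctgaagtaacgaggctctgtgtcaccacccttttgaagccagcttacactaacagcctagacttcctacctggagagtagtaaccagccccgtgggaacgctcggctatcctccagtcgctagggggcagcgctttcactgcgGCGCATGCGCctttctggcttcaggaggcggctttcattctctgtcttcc
Sdha: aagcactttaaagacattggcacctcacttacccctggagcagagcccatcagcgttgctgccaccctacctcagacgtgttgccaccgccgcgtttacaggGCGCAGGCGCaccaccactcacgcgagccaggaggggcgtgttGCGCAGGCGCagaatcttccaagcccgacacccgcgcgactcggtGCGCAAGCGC

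Members with and without a match had overlapping ranges of differences. The 17 members with the NRF1 letters had medians of -0.43 for withdrawal minus saline and -0.44 for cocaine minus saline, and the 48 without -0.40 in each. For GABP the 16 members with a match had -0.46 for withdrawal and -0.47 for cocaine, and the 49 without -0.40 for withdrawal and -0.39 for cocaine. With NRF1 letters, members ran from -0.74 in Atp5h to -0.16 in Sdha for cocaine minus saline. These are descriptions of small groups with no test.

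Of 7 matches to the YY1 letters in members, 6 lay after the start, with the first base at positions 23 to 36 counted from the start as 1, and all 6 on the strand of the gene, where the letters hold an ATG. The seventh, in Atp5j, began at position -88. Positions in other promoters were not tabulated. Ndufc1, Ndufs4, Ndufs6 and Ndufs7 are shown from 10 bases before the match, with the match in capitals, to compare 3 members that were called lower with Ndufs7, which was not. Atp5j2, Ndufa9 and Atp5j, which also match, were not called either and are not shown. The coordinates are chr3:51408914-51408943 (minus strand) for Ndufc1, chr13:114388045-114388069 (minus strand) for Ndufs4, chr13:73328433-73328459 (minus strand) for Ndufs6 and chr10:80249463-80249492 (plus strand) for Ndufs7.
Ndufc1: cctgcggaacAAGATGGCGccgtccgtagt
Ndufs4: tgcctacaggAAGATGGCGgcggtc
Ndufs6: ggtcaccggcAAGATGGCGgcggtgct
Ndufs7: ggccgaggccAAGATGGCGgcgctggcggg
The 7 members with a match had medians of -0.48 for withdrawal and -0.52 for cocaine, and the 58 without had -0.40 in each. Those with a match ran between -0.90 in Ndufc1 and -0.16 in Ndufa9 for cocaine minus saline.

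Markers of several cell types moved with the comparisons. All 7 endothelial and mural markers were higher than saline in both cocaine-exposed libraries. Of them, 6 were called higher in withdrawal and 3 in cocaine, where 3.96% and 2.93% of tested genes were. Their summed level was 71.0 to 80.7 RPKM in withdrawal lanes, 60.8 to 66.4 in cocaine lanes and 44.8 to 48.7 in saline lanes. The 10 medium spiny neuron markers summed to 1715 to 1735 RPKM in withdrawal lanes, 1419 to 1505 in cocaine lanes and 1987 to 2089 in saline lanes, with Ppp1r1b (DARPP-32) and Tac1 called lower in cocaine (-0.75 each). Per gene their median was -0.01 for withdrawal minus saline, with 4 of 10 above 0, and -0.32 for cocaine minus saline, with 0 of 10 above 0. For withdrawal minus cocaine their median was 0.35. All 10 had withdrawal lanes above cocaine lanes, as 8.66% of tested genes had. Erythroid markers summed to 222 to 245 RPKM in withdrawal lanes, 398 to 438 in cocaine lanes and 302 to 326 in saline lanes. All 4 were called lower in withdrawal than in cocaine, as 0.548% of tested genes were. Of 4 tested markers of cortical projection neurons, Slc17a7 was called lower in both, with 3.29, 4.34 and 4.26 RPKM in withdrawal lanes, 5.83, 5.01 and 5.76 in cocaine lanes, and 19.4, 18.2 and 17.4 in saline lanes. The others were not called, with Cux2 at 0.48 in withdrawal and 0.44 in cocaine, Rasgrf2 at 0.24 in withdrawal and 0.47 in cocaine, and Tbr1 at -0.39 in withdrawal and 0.04 in cocaine. Summed neuronal markers lay at 416 to 435 RPKM in withdrawal lanes, 435 to 444 in cocaine lanes and 459 to 466 in saline lanes. These 4 markers went both ways. With lanes apart, 2 lay below saline in withdrawal and 3 in cocaine, and 1 lay above saline in each comparison. Medians of the astrocyte, oligodendrocyte and microglia markers lay between -0.28 and -0.11 in withdrawal and between -0.16 and -0.10 in cocaine, with no call. The 7 astrocyte markers went both ways, with 4 lower and 3 higher than saline, lanes apart, in each comparison. The choroid plexus marker Ttr was called higher in cocaine (1.498), at 1.33, 0.617 and 0.901 RPKM in withdrawal lanes, 5.26, 10.0 and 7.24 in cocaine lanes, and 2.93, 1.29 and 2.90 in saline lanes. The other tested choroid plexus marker, Clic6, had 0.08 in withdrawal and -0.09 in cocaine. The part of cell composition in the lower levels of the subunit genes was not tested.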

How the data were processed

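Poly(A) RNA of 3 pooled accumbens samples was sequenced in 3 lanes each with 37 cycles from each end, per the labels' protocols. The deposited values are RPKM per gene and lane, which the authors computed. The file headers give each lane's total. The submitters' processing notes name the aligner Bowtie 0.12.7 and the build mm9. The counter, annotation and use of strand are not given in the sources used here. Library totals were 19452882 reads for withdrawal, 24219333 for cocaine and 26006605 for saline. RPKM divides by the library's own total, so a rise of other transcripts lowers the value of a gene.

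Values were transformed to log2(RPKM + 0.5) for genes whose 9 lanes averaged 1 RPKM or more. Lanes of a library were averaged, and calls needed a difference of 1.5 times with lanes apart. Gene model lengths were recovered from the steps between values, since each value comes to whole multiples of 1/37 read (relative tolerance 1e-12). Reads were thus counted in parts, and count tests were left out. The limma fit on lanes (R 4.3.3, limma 3.58.1) was an alternative that compares libraries, not treatments. It was tried on simulated lanes that held lane spread but no spread between libraries, so that trial does not check comparisons of treatments. Exon overlaps came from GENCODE M21 and promoters from RefSeq, both of builds other than mm9, so no coordinates of the files are given.

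Members and gene lists were chosen with earlier results of these data known. By rule, the genes named were the called members, the 4 largest and 4 smallest differences per comparison, and the 5 highest and 3 lowest levels. The rule also took complexes II and III and the Atp5g paralogs. From the lists of other mitochondrial genes it took every called gene and the 3 largest sizes in cocaine minus saline. Cox4i1, Cycs, Ndufab1, Ndufa4l2, Ppargc1a, Nrf1, Tfam and Ppp1r1b were always named. Others, among them Vdac1, Opa1, Cs, Ndufs7, Ndufa9, Ndufs1 and Ndufa10, were named outside the rule with their values known. Marker, ribosomal and proteasome genes are given by counts, and those named, apart from Ppp1r1b, were named after their values were seen.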

Additional observations from a re-analysis of the deposited data

How the results depend on the processing

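The lower direction of the medians against saline held under every alternative run, while the number of members called moved with the limits. With a lower limit of 0.32 on the log2 scale, 56 members were called lower in withdrawal (15.2% of tested genes) and 56 in cocaine (12.1%), and 1 (Ndufa3, 2.23% of tested genes) was higher in withdrawal than in cocaine. With a limit of 2 times, 1 was called lower in withdrawal (Cox7a1, 0.313% of tested genes) and 0 in cocaine (0.242%). After scaling each lane to its 75th percentile, 8 of the 10 calls in withdrawal were kept (1.99% of tested genes) and 5 of the 12 in cocaine (1.45%: Ndufc1, Ndufb2, Atp5h, Ndufs6 and Ndufa1 among members), and the medians were -0.33 for withdrawal and -0.33 for cocaine. With the median difference of all genes set to 0 the withdrawal median was -0.35. After centring on length, 1 member was called lower in withdrawal and 2 in cocaine, with medians of -0.21 for withdrawal and -0.18 for cocaine; the cause of these shifts was not tested. Leaving out 1 lane in turn gave 10 to 12 members called lower in withdrawal (4.02% to 4.55% of tested genes) and 11 to 14 in cocaine (2.73% to 3.3%), with medians of -0.42 to -0.40 for withdrawal and for cocaine. Between withdrawal and cocaine it gave 0 calls, where 0.854% to 1.1% of tested genes were called lower and 0.633% to 0.961% higher. Medians of members there were -0.027 to -0.0053. Calls lost without a lane were Atp5e (cocaine lane 1), Cox6a1 (cocaine lane 2 or 3) and Cox6b1 (cocaine lane 3 or saline lane 2) in cocaine, and Atp5o (saline lane 2) in withdrawal.

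By limma on lanes, which treats technical lanes as replicates, 70 members were lower in withdrawal (18.2% of tested genes) and 68 in cocaine (14.4%) at an adjusted p under 0.05. Lane numbers did not pair lanes across libraries, with correlations of residuals of -0.051 to 0.076 for the same number and -0.064 to 0.044 for different numbers. With the lane number as a replicate block limma called 69 members lower in withdrawal (18.1% of tested genes) and 68 in cocaine (14%). Between withdrawal and cocaine limma called 0 members in either fit. Of tested genes, 0.185% were called lower and 0.185% higher without the block, and 0.149% and 0.128% with it. The unadjusted limma p was under 0.05 for 19 members. The share of all tested genes at that limit was not counted, so these 19 have no background to be read against and show no difference of the set. Pooled RNA, 1 library per group, limits all comparisons: differences between mice and between library preparations cannot be told apart from treatment.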

Other observations

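Other mitochondrial transcripts were described by 2 lists. The 20 genes for mitochondrial carriers, porins and protein import had median differences of -0.29 for withdrawal minus saline and -0.27 for cocaine minus saline. Of these, 1 (5%) was called lower in withdrawal and 0 in cocaine, near the shares of all tested genes, 3.37% in withdrawal and 2.41% in cocaine. Their summed level was 1587 to 1634 RPKM in withdrawal lanes, 1658 to 1688 in cocaine lanes and 1987 to 2016 in saline lanes, so the libraries did not overlap. Tomm22, a receptor of the outer membrane import pore, was the gene called lower in withdrawal (-0.72), with 29.1, 35.5 and 32.7 RPKM in withdrawal lanes, 45.5, 37.9 and 35.7 in cocaine lanes, and 54.5, 48.4 and 58.1 in saline lanes. Its withdrawal lanes were lowest, and its cocaine lanes lay between them and saline. In cocaine the largest sizes of the list were those of Tomm40 (-0.46), Tomm22 (-0.43) and the porin Vdac3 (-0.41), and Tomm40 had -0.34 and Vdac3 -0.55 in withdrawal. Vdac1, the main porin of the outer membrane, had 204, 203 and 201 RPKM in withdrawal lanes, 227, 220 and 223 in cocaine lanes, and 291, 290 and 282 in saline lanes, with differences of -0.50 in withdrawal and -0.36 in cocaine. The 3 libraries did not overlap for Vdac1.

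The 11 genes for fusion, fission and the shape of the inner membrane had medians of -0.28 for withdrawal and -0.08 for cocaine with no call. Fis1, of the fission machinery, had -0.45 in withdrawal and -0.50 in cocaine, and Mff, which recruits the fission enzyme, had -0.52 in withdrawal and -0.34 in cocaine. Chchd6, of the complex that shapes cristae, had -0.38 in withdrawal and -0.34 in cocaine. Opa1, which fuses inner membranes, had 0.29 in withdrawal and 0.20 in cocaine, with 30.3, 30.9 and 34.5 RPKM in withdrawal lanes, 28.1, 31.2 and 30.1 in cocaine lanes, and 26.2, 24.2 and 27.4 in saline lanes. Its lanes in both cocaine-exposed libraries lay above saline.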
